A study of Mus musculus with 2 samples.

Results

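Promoter peaks of NANOG in mouse embryonic stem cells were the peaks of the authors' optimal set whose summit lay within 1 kb of the transcription start site (TSS) of a protein-coding gene, taken as the 5' end of the gene. They were 509 of the 15852 optimal peaks on chromosomes 1 to 19 and X, a share of 3.21% (2.94 to 3.50), and the whole optimal set held 15891 peaks. The optimal set holds peaks that passed the irreproducible discovery rate (IDR) filter, a filter for reproducibility. The conservative set is the authors' smaller list of 9431 peaks from the same filter. Optimal peaks need not rank alike in the 2 replicates. Of the 509 promoter peaks, 202 overlapped the 15891 highest regions of each replicate. The choice used position only, so strength, side of the TSS, gene classes and replicate support were free to vary. The data are from chromatin immunoprecipitation followed by sequencing (ChIP-seq) with a NANOG antibody in E14TG2a.4, a male embryonic stem cell line of strain 129/Ola with a labelled age of 3.5 days. The labels give 1 group of 2 biological replicates from 1 line with no treatment, and no second condition to compare. Signal is the authors' own value per peak, whose scale is not stated, and it served to order peaks inside 1 list. Depth is unknown, since the lists give no read counts. Intervals in parentheses are exact 95% Clopper-Pearson intervals of shares, or 95% intervals of odds ratios (the odds of a property in promoter peaks divided by the odds in the reference, 1 for no difference). They cover counting of peaks or genes only, and peaks of a list are not independent replicates.

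NANOG is a homeodomain transcription factor that helps to hold embryonic stem cells in the pluripotent state together with OCT4 and SOX2. It is known for binding distal enhancers more than promoters. Promoters are the sequences at gene starts where RNA polymerase II is loaded, and many carry boxes for general factors such as NFY, which binds the CCAAT box, and SP proteins, which bind the GC box.

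Summit sequences show what lay under the summits nearest to a start. RefSeq promoter windows (build GRCm38.p6, the assembly of mm10, 250 bases before to 50 after a start) held the summits of 130 promoter peaks, and for 96 of these the 101 bases centred on the summit were inside the window. Starts in this table can differ by some bases from the gene's 5' end used for distances. The following 6 stretches belong to the peaks of highest signal whose 101 bases end before the start and lie outside protein-coding genes. Each is written 5' to 3' on the gene's strand, with the summit at the middle base, and capitals mark matches to any of the motifs listed after the sequences.
Mobp, chr9:120149605-120149705, strand +: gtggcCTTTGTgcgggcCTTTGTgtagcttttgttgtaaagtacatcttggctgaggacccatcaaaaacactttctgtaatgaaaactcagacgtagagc
Coq10a, chr10:128370169-128370269, strand -: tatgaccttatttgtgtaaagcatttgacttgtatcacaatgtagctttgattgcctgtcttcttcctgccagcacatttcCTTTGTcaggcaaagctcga
Fbxo27, chr7:28692628-28692728, strand +: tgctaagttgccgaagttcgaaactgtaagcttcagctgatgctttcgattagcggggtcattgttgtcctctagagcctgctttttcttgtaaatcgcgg
Vrtn, chr12:84640796-84640896, strand +: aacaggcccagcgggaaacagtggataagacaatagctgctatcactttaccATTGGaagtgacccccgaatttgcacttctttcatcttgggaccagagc
Stk38, chr17:29008071-29008171, strand -: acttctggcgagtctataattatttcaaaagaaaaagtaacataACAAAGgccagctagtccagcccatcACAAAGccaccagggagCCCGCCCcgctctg
Paip2b, chr6:83831805-83831905, strand -: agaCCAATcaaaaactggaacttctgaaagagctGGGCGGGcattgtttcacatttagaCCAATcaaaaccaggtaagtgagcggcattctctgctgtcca

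The next 4 were picked after their sequences were seen, as examples with a CCAAT box near the summit.
Kmt5c, chr7:4739973-4740073, strand +: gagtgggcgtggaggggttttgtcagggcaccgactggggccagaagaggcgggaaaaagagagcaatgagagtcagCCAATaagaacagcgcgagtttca
Dnajb5, chr4:42949664-42949764, strand +: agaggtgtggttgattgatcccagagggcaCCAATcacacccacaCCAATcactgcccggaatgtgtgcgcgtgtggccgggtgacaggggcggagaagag
Izumo1, chr7:45621699-45621799, strand +: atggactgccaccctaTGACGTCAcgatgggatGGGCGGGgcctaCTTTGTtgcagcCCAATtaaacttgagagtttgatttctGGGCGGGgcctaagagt
Mterf2, chr10:85128044-85128144, strand -: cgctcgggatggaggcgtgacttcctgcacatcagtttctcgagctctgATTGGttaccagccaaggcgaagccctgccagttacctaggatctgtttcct

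The motifs searched, on both strands, were the OCT octamer ATGCAAAT, the SOX site ACAATGG, the homeodomain site TAATGG, the ESRRB site TCAAGGTCA, the KLF site GGGTGTGG, the GC box GGGCGGG, the CCAAT box CCAAT, the ETS site CCGGAAGT, the NRF1 site GCGCATGCG, the YY1 site AAGATGGCG, the E-box CACGTG, the CRE TGACGTCA and the TATA box TATAAA. A shorter SOX core, ACAAAG, was added after the sequences were seen. None of these motifs contains another. The 2 copies of the SOX core in the Mobp stretch lie 45 and 33 bases before the summit, and the Stk38 stretch also holds 2 copies. The Fbxo27 stretch holds no match.

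The CCAAT box, the shortest of these motifs, was the most frequent at promoter summits and also over all promoter windows. It lay in 40 of 96 summit-centred stretches, 41.7% (31.7 to 52.2), against 19.9% (19.4 to 20.5) of 21019 promoter windows read over the same length at 102 bp upstream, the median summit position. In whole windows of 300 bases the shares were 61.7% (52.7 to 70.2) of 128 windows with a summit and 38.5% (37.8 to 39.1) of all windows. It was at 55.0% (41.6 to 67.9) where the peak was also in the authors' stricter conservative set and 67.6% (55.2 to 78.5) where it was not. The SOX core lay in 14.6% (8.21 to 23.3) of summit-centred stretches and 6.28% (5.96 to 6.62) of all. It was picked after these same stretches were seen, so its excess is no independent evidence. GC boxes lay in 17.7% (10.7 to 26.8) of summit stretches and 16.6% (16.1 to 17.1) of all, a difference within the interval.

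Apart from the SOX core given above, motifs of the pluripotency factors were found in few of these stretches. The longer SOX site lay in 2 of 96, 2.08% (0.253 to 7.32), against 0.899% of all windows. The homeodomain site lay in 2 of 96 stretches, 2.08% (0.253 to 7.32), against 2.12% of all windows, and the OCT octamer in 0 of 96, against 0.695%. A count of 0 allows a share of up to 3 counts of the total, here 3.13%, and the exact upper limit is 3.77%. The ESRRB site lay in 1 stretch, 1.04% (0.0264 to 5.67), against 0.124% of all windows. The KLF site also lay in 1, 1.04%, against 1.48%. The TATA box lay in 1 of 96 stretches against 3.45% of all windows. Stretches at summits had a median GC content of 53.5% (quartiles 48.5 and 58.4), and all windows at that position had 56.4% (47.5 and 66.3). A GC content of at least 60% was found in 19.8% of summit stretches and 40.7% of all. These shares are descriptions of letters in short windows, and no test was made on them.

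**Figure D1:**
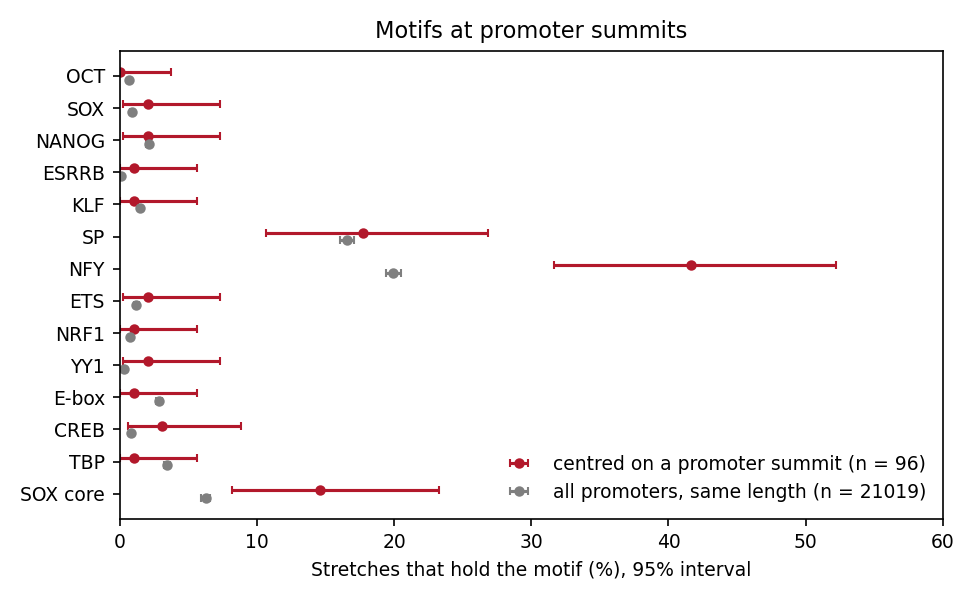
Share of 101-base stretches that hold each motif on either strand (x axis, percent), for 96 stretches centred on a promoter summit (red) and for 21019 RefSeq promoter windows at the median summit position (grey), with exact 95% intervals. NFY is the most frequent, at 41.7% against 19.9%. The SOX core, added after the sequences were seen, is at 14.6% against 6.28%. The OCT, NANOG and KLF sites are at or below 2.08% at summits.

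The strongest promoter peaks also ranked high in each replicate. The authors made the optimal set from both replicates, so choosing by its signal favoured such ranks in advance. The peak of Mobp, which encodes a myelin protein, had the highest signal, 388.3, at 87 bp upstream of the TSS (mm10 chromosome 9, 120149481 to 120149826). It ranked 61 of 300000 regions in the relaxed list of replicate 1 (all candidate regions before the reproducibility filter) and 65 for replicate 2. Pou5f1, which encodes OCT4, followed with ranks 237 and 88 for its peak 930 bp upstream. Ifitm2, an interferon-induced transmembrane protein gene, had signal 285.1 at 53 bp downstream, inside the gene, with ranks 261 and 170 (chromosome 7, 140959485 to 140959821). Irx4, an Iroquois homeobox gene, had signal 282.8 at 200 bp downstream with ranks 280 and 168. Upp1, which encodes uridine phosphorylase, had signal 270.3 at 891 bp upstream with ranks 266 and 234. These 5 promoters were the highest, with each replicate placing the peak among its 280 highest regions.

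Peaks of genes with quite different roles made up the rest of the 20 highest. Spp1, which encodes the secreted protein osteopontin, had signal 210.4 at 988 bp upstream (ranks 528 and 482). Coq10a, a coenzyme Q-binding protein gene, had signal 205.2 at 163 bp upstream (ranks 545 and 593). Syncrip, an RNA-binding protein gene, had signal 187.4 at 755 bp upstream (ranks 678 and 706). Porcn, the acyltransferase that makes WNT proteins competent for secretion, had signal 187.2 at 759 bp upstream on chromosome X (ranks 574 and 948). Pkia, an inhibitor of protein kinase A, had signal 179.5 at 349 bp downstream (ranks 691 and 903). The widest gap between replicates among the 20 was at Gjc1, a connexin gene, whose peak 949 bp upstream (signal 171.3) ranked 516 in replicate 1 and 2036 in replicate 2. Others were Ly96, a co-receptor for lipopolysaccharide (172.7), Timp4, an inhibitor of metalloproteinases (170.0, inside the gene Syn2), Fbxo27 (168.0), Fubp3 (163.5), Plekhf2 (152.9), Fam189a1 (152.4), Gm52006 (176.2) and Rbpj, the DNA-binding factor of the Notch pathway (151.0). Rif1, which encodes a regulator of replication timing, had signal 152.8 at 574 bp upstream (ranks 1322 and 722). All 20 overlapped the conservative set and ranked within the top 15891 regions, the size of the optimal set, in each replicate. This was general at such signals. Of the 3098 other optimal peaks in the highest quintile of signal, 98.97% overlapped the conservative set and 98.9% were in the top of both replicates.

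**Figure D2:**
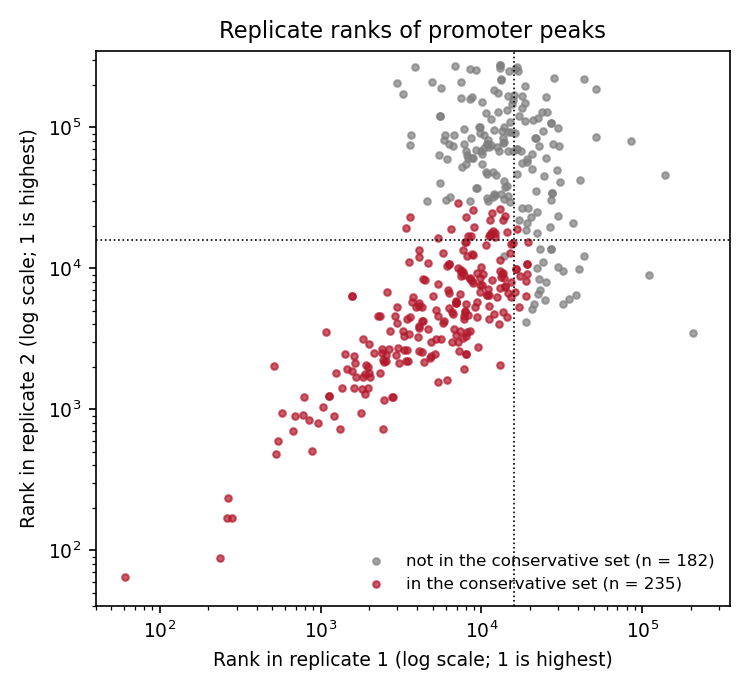
Rank of each promoter peak in the relaxed list of replicate 1 (x axis) and replicate 2 (y axis), both on log scales with 1 as the highest, for the 417 peaks with an overlapping region in both lists. Red points are in the conservative set (235) and grey points are not (182), and dotted lines mark rank 15891. Peaks near the lower left ranked high in both replicates, and most grey points lie above the horizontal line, outside the top of replicate 2.

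Few genes had a promoter peak. Of 21314 protein-coding genes with a known strand, 513 (2.41%) had an optimal summit within 1 kb of the TSS, and 238 (1.12%) had one from a peak that overlapped the conservative set. The top peaks of replicate 1 alone, as many as in the optimal set, gave 518 genes (2.43%) and those of replicate 2 gave 454 (2.13%). Both replicates gave 208 genes, 40.2% (35.9 to 44.5) of those of replicate 1 and 45.8% (41.2 to 50.5) of those of replicate 2. Over the 513 genes, the median signal of the highest promoter peak was 33.6.

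Core and naive pluripotency genes had the highest share of promoter peaks among 28 gene classes, 6 of 35 (17.1%, 6.56 to 33.6), with a median signal of 91.1. Beside Pou5f1 and Rif1 these were Fbxo15, an F-box gene active in embryonic stem cells (signal 134.6, 47 bp downstream, ranks 1357 and 1411), and Prdm14, a factor of naive pluripotency (47.6, 987 bp upstream, ranks 7820 and 4608). Zfp42, which encodes the marker REX1 (38.4, 202 bp upstream), and Dppa4 (35.3, 799 bp upstream) were added here after their values were seen. All 6 peaks overlapped the conservative set and had top ranks in each replicate. The top of replicate 1 alone gave 6 genes of this class and that of replicate 2 gave 7. This list and those of the other classes below were written with results of these data known, so their shares are no independent evidence.

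Signalling genes came next, with 7 of 61 (11.5%, 4.74 to 22.2) and a median signal of 34.0. The peak of Id1, a target of BMP signalling that blocks differentiation factors, lay 23 bp upstream (signal 50.5, ranks 7385 and 3611). Etv1 and Etv4, ETS factors induced by FGF signalling, had peaks of signal 46.5 at 604 bp and 34.0 at 718 bp upstream, both in the conservative set. Sp5, a target of WNT signalling, had signal 34.8 at 43 bp downstream and ranked 7752 in replicate 1 but 76520 in replicate 2. Named after their values were seen, the other members were Id2 (29.8) and Smad6 (29.8), a BMP target and an inhibitor of BMP signalling, and Axin2 (24.4), a WNT target. Of the 7 peaks, those of Sp5, Id2 and Axin2 were outside the conservative set. In the top of replicate 1 alone 7 genes of the class had a promoter summit, and in that of replicate 2 there were 4.

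Chromatin genes had single promoter peaks, at shares whose intervals include the background of 2.41%. Among polycomb and chromatin genes there were 2 of 37 (5.41%, 0.661 to 18.2). Phc1, a subunit of polycomb repressive complex 1, had signal 95.3 at 388 bp upstream (ranks 2451 and 2235), and L3mbtl2, a subunit of a variant of that complex, had 24.3 at 491 bp upstream, ranked 12285 in replicate 1 and had no overlapping region in the list of replicate 2. Histone lysine demethylases and methyltransferases had 3 of 52 (5.77%, 1.21 to 15.9), which were Kdm8 (68.8, 40 bp upstream), Kmt5c, a methyltransferase for histone H4 (55.0, 69 bp upstream), and Prdm14. None of 18 DNA methylation genes had one, which allows a share of up to 16.7% by the 3-count limit (exact upper limit 18.5%).

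Genes of the gene expression machinery also had shares whose intervals include 2.41%. Cytosolic ribosomal protein genes had 3 of 84 (3.57%), of which Rps21 had signal 41.7 at 48 bp upstream and was in the conservative set. Rpl27 (26.2) and Rps25 (23.8, whose peak lay nearest to the TSS of Trappc4) were in the top of replicate 2 only. Mitochondrial ribosomal proteins had 3 of 78 (3.85%), splicing factors 4 of 56 (7.14%, 1.98 to 17.3) and housekeeping genes 1 of 28 (Ppia, a prolyl isomerase, 25.2). Srsf2, a splicing factor, had the highest signal of its class, 31.4 at 514 bp upstream. Histone genes had 4 of 100 (4.00%), and H2az1, a variant of histone H2A, had signal 30.6 at 12 bp upstream. Proteasome subunits had 0 of 51 and respiratory complex I subunits 0 of 49, which allow shares of up to 5.88% and 6.12% by the 3-count limit (exact upper limits 6.98% and 7.25%).

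The lists of lineage, Hox, Sox and forkhead genes each held 1 gene with a promoter peak or none, and their intervals include the background. Tfap2c, a factor of trophectoderm and germ cells, was 1 of 28 lineage regulators (3.57%, signal 100.4, 887 bp upstream, ranks 2149 and 2521). Hoxb1 was 1 of 39 Hox genes (2.56%, 19.6, 146 bp upstream, in the top of neither replicate), and Sox30 1 of 19 Sox genes (5.26%, with 2 overlapping peaks, the higher of signal 37.8). None of 44 forkhead genes had one, which allows up to 6.82% by the 3-count limit (exact upper limit 8.04%). The same was true of 18 germline genes, 10 genes of the two-cell-like state and 29 genes of liver, muscle and blood.

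Large receptor families lay below the background. Olfactory receptors had 4 of 1108 (0.361%, 0.0984 to 0.922) and vomeronasal receptors 1 of 350 (0.286%, 0.00723 to 1.58), and none of these peaks was in the conservative set. Olfr27 had the highest, 43.2 at 647 bp upstream, with rank 7600 in replicate 1 and 52302 in replicate 2. Solute carriers had 14 of 346 (4.05%, 2.23 to 6.70), led by Slc39a2, a zinc transporter (114.0), and Slc25a1, the mitochondrial citrate carrier (108.2). Genes named Zfp had 14 of 396 (3.54%, 1.95 to 5.86), led by Zfp658 (117.8) and Zfp719 (64.4). On chromosome X 14 of 954 genes had a promoter peak (1.47%, 0.805 to 2.45). The intervals of the solute carriers, the Zfp genes and chromosome X each include the background of 2.41%.

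**Figure D3:**
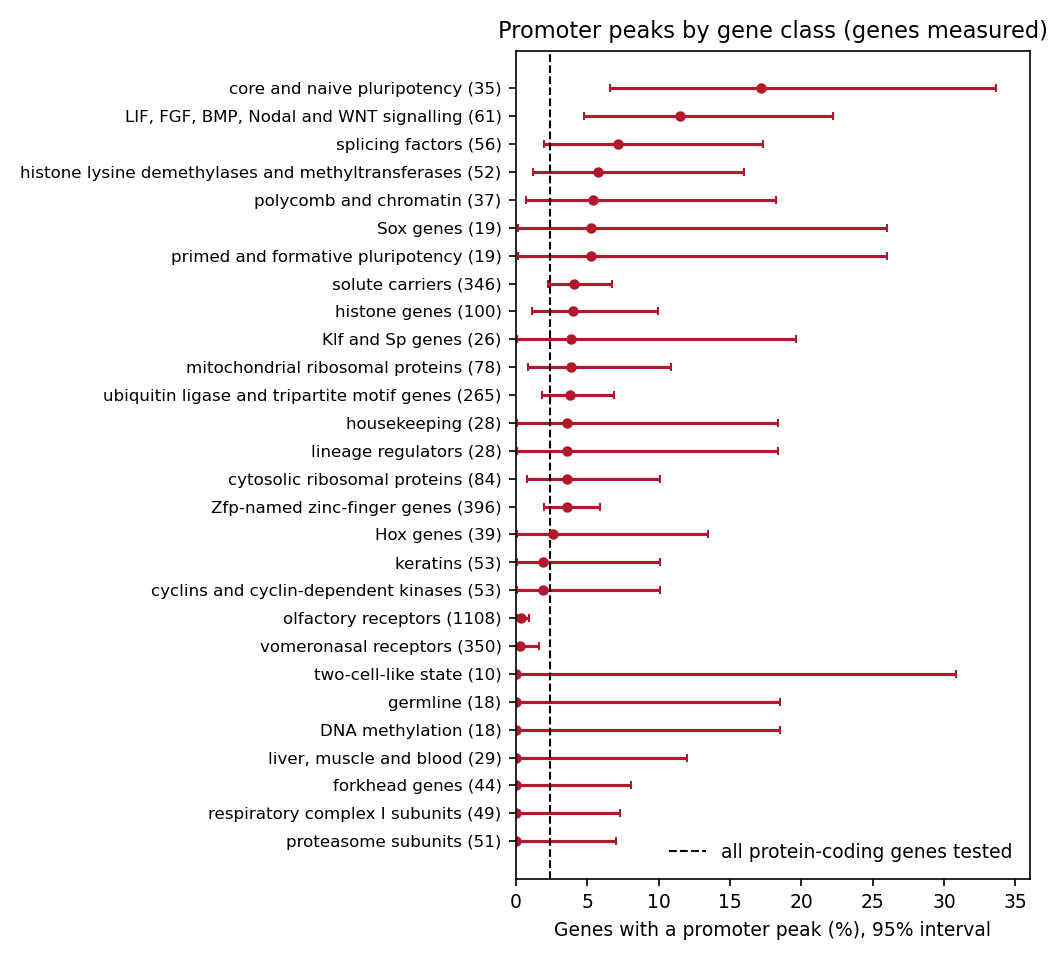
Share of genes with a promoter peak (x axis, percent) in each of 28 gene classes, with the number of genes measured in parentheses and exact 95% intervals as bars. The dashed line is the share over all 21314 genes, 2.41%. Core pluripotency (17.1%) and signalling genes (11.5%) lie above the line with their intervals, and olfactory (0.361%) and vomeronasal receptors (0.286%) lie below it. The classes were chosen with earlier results of these data known.

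Promoter summits lay mostly upstream of the TSS. Of the 509 summits, 317 lay upstream, 62.3% (57.9 to 66.5). The background here was the 100000 regions of lowest signal in the authors' list of the pooled replicates, of which 2807 met the same rule, and 44.9% (43.1 to 46.8) of them were upstream. The odds ratio was 2.02 (1.66 to 2.47, Fisher's exact test, two-sided, adjusted p = 4.59e-12). It was 1.57 without replicate 1 and 2.33 without replicate 2. The bins from 100 bp to the TSS and from 200 to 100 bp upstream held 60 and 51 summits, 11.8% and 10.02% of the total, against 6.34% and 5.70% of the background regions. Downstream, the bins from the TSS to 100 bp and from 100 to 200 bp held 5.70% and 5.11% against 7.45% and 6.34% of the background regions. The lowest bin relative to background was that from 300 to 400 bp, with 10 summits (1.96%) against 5.49%. Upstream, the bin from 400 to 300 bp was also below background, at 2.95% against 4.67%.

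Close to the TSS, promoter summits were somewhat denser than background regions. Within 250 bp lay 195 of 509 summits, 38.3% (34.1 to 42.7), against 31.7% (29.99 to 33.5) of the background regions, an odds ratio of 1.34 (1.09 to 1.63, Fisher's exact test, two-sided, adjusted p = 0.00722). This call was lost with the top peaks of replicate 2 only (1.00), with the conservative set (1.30), with the 50000 lowest-ranked regions (1.26) and at 100 bp (1.34). With replicate 1 only it was 1.35. Os9, a gene of protein quality control in the endoplasmic reticulum, had a summit 1 bp upstream (signal 77.2, ranks 5363 and 1566). Lrrc2 had one at 6 bp upstream (80.7), Has3, a hyaluronan synthase, at 29 bp (68.9) and Kdm8 at 40 bp. These and Fbxo15 were the highest of the 47 peaks within 50 bp of a TSS, whose median signal was 31.0.

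**Figure D4:**
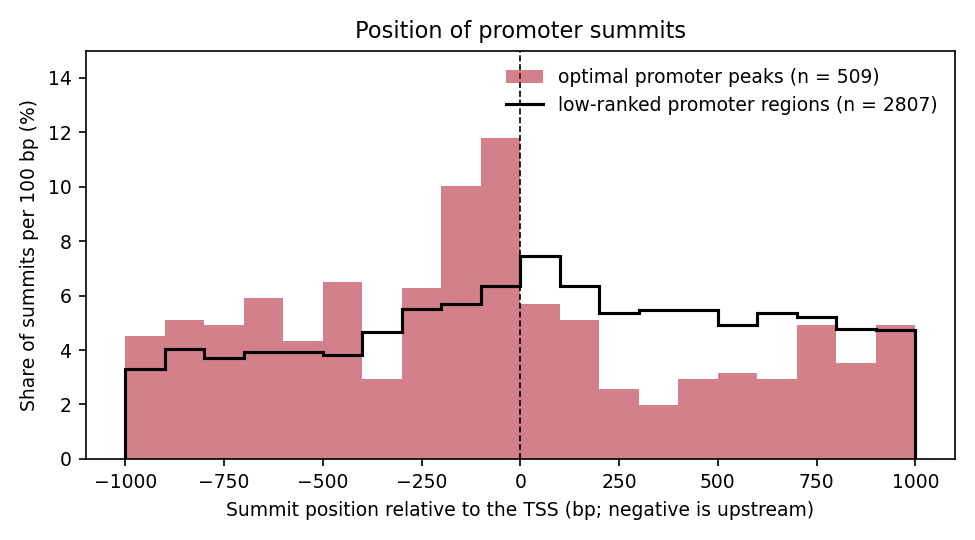
Position of the summit relative to the nearest TSS (x axis, bp, negative upstream) in bins of 100 bp, as a share of summits (y axis, percent), for 509 optimal promoter peaks (red) and 2807 low-ranked promoter regions (black line). The red bars are highest in the 2 bins just upstream of the TSS, at 10.02% and 11.8%, and low from 200 to 700 bp downstream.

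Upstream and downstream peaks had like signals. The median signal was 33.8 for 317 upstream peaks and 30.9 for 192 downstream peaks, and 49.2% (43.6 to 54.9) and 41.1% (34.1 to 48.5) were in the conservative set. Replicate support was less alike. The top of replicate 1 held 80.1% (75.3 to 84.4) of upstream and 69.8% (62.8 to 76.2) of downstream peaks. The top of replicate 2 held 46.4% and 45.8%. These differences were not tested. Of the upstream summits, 29 lay inside another protein-coding gene and 288 outside all of them. The 3 peaks just inside the limit of 1 kb belonged to Plekhf2 (999 bp, signal 152.9), Dmtn (997 bp, 71.3) and Tcim (997 bp, 29.4), and the 3 just outside to Zmym4 (1002 bp, 23.1), Gbp4 (1002 bp, 28.4) and Ankrd6 (1004 bp, 53.9).

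Some promoters were shared by gene pairs or held several peaks. In 39 peaks the window held the TSSs of 2 or more genes, on both strands in each case, and 470 had 1 gene. Chek2, a kinase of the DNA damage checkpoint, and Hscb, a co-chaperone for iron-sulphur clusters, shared a peak of signal 109.3. Dido1 and Gid8 shared one of 91.6, Slc6a16 and Cd37 one of 80.4, and Etfrf1 and Casc1 one of 71.2. The shared peaks had a median signal of 29.4 against 33.0 for the others. A divergent partner within 1 kb upstream was annotated for 9.36% (6.98 to 12.2) of genes with a promoter peak and 6.97% of all genes tested. Of the 513 genes, 29 had 2 promoter peaks and 3 had 3. At Gjc1 both were strong, 171.3 at 949 bp and 129.9 at 70 bp upstream, and at Rbpj they were 151.0 and 44.0, at Stk38, a kinase gene, 115.8 and 41.4. At Bach1, Slc27a2, Rhpn2 and Mob4 the second peak overlapped the first and met the same region in each replicate, and 42 of the 509 members overlapped another member.

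Genes with a promoter peak often had other peaks within 50 kb too. Another optimal summit lay 1 to 50 kb from the TSS of 322 of 513 genes, 62.8% (58.4 to 67.0), against 43.9% (43.2 to 44.6) of genes without a promoter peak. This difference was not tested. Counted by peak, another optimal peak lay within 10 kb for 29.7% (25.7 to 33.8) of promoter peaks. For all other optimal peaks the share was 32.7%, and for those 1 to 10 kb from a TSS it was 34.7%, so neighbouring peaks were not particular to promoter peaks.

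Promoter peaks were weaker than other NANOG peaks. Their signals ran from 7.43 to 388.3 with a median of 32.8 (quartiles 23.7 and 52.6), and the other 15343 optimal peaks had a median of 40.5 (27.4 and 68.9). A signal above the median of the optimal set was found for 189 of 509 promoter peaks, 37.1% (32.9 to 41.5), and 50.4% (49.6 to 51.2) of the others, an odds ratio of 0.581 (0.481 to 0.699, Fisher's exact test, two-sided, adjusted p = 1.76e-08). Peaks 1 to 10 kb from a TSS, the next closest, had a median of 40.1, and against them the odds ratio was 0.593. In the top peaks of replicate 2 alone the difference did not pass the test (0.904, adjusted p = 0.590 by Fisher's exact test), and in those of replicate 1 alone it was 0.603.

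Fewer promoter peaks were in the conservative set, but not at like signal. The conservative set overlapped 235 of 509 promoter peaks, 46.2% (41.8 to 50.6), and 57.0% (56.3 to 57.8) of the others, an odds ratio of 0.646 (0.539 to 0.774, Fisher's exact test, two-sided, adjusted p = 4.02e-06). Within 20 strata of signal rank, the Mantel-Haenszel odds ratio, which averages over strata, was 0.913 (0.719 to 1.16, chi-square test, adjusted p = 0.693). This interval includes both no difference and a moderately lower share. By quintile of the optimal signal, counted from 1 as the lowest, the shares of promoter and other peaks were 6.58% and 13.1% in quintile 1, 31.7% and 30.3% in quintile 2, and 58.9% and 57.9% in quintile 3. They were 82.7% and 83.4% in quintile 4, and in quintile 5 all 72 promoter peaks and 98.97% of the others. In quintile 1, which held 152 of the 509 promoter peaks, the interval of the promoter peaks (3.20 to 11.8) did not include the share of the others.

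Single genes show both ends of this range. The highest promoter peaks outside the conservative set were those of Defb1, a beta-defensin gene (signal 71.0, 376 bp upstream), Zmat5 (69.1), Fgf23, a phosphate-regulating hormone gene (61.1), Lmbrd1 (60.8) and Aim2, a sensor of cytosolic DNA (60.8, inside the gene Cadm3). Each ranked between 2979 and 3654 in replicate 1. In replicate 2 Defb1 ranked 205947, Zmat5 172565, Fgf23 74611 and Aim2 88580, and Lmbrd1 had no overlapping region. The lowest promoter peaks that overlapped the conservative set were those of Slc27a2 (8.30), Mrpl37 (11.8), Sox30 (13.3), Mob4 (15.3) and Rhpn2 (16.0). All of these except Mrpl37 overlapped a stronger promoter peak of the same gene.

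Replicate 1 supported fewer promoter peaks than other peaks of like signal. The top 15891 regions of replicate 1 overlapped 388 of 509 promoter peaks, 76.2% (72.3 to 79.9), and 86.7% (86.1 to 87.2) of the others. At like signal the odds ratio was 0.645 (0.482 to 0.864, Mantel-Haenszel chi-square test, adjusted p = 0.00722). The widest gap was in quintile 1 of signal, where 32.9% (25.5 to 41.0) of promoter peaks and 45.4% (43.6 to 47.2) of others were supported, and from quintile 3 up at least 99.5% of both kinds were. The call was lost against peaks 1 to 10 kb from a TSS (0.801), with summits matched within 100 bp (0.777) and with 50000 top regions, where it turned to 1.61 (0.731 to 3.53, chi-square test, adjusted p = 0.429). Some 508 of the 509 promoter peaks overlapped a region somewhere in the full list of replicate 1.

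Replicate 2 supported promoter peaks and other peaks of like signal at rates that the test did not separate. It overlapped 235 promoter peaks, 46.2% (41.8 to 50.6), and 54.9% (54.1 to 55.6) of the others, with an odds ratio at like signal of 0.998 (0.799 to 1.25, Mantel-Haenszel chi-square test, adjusted p = 0.986). Both replicates supported 202 promoter peaks, 39.7% (35.4 to 44.1), against 50.8% of the others, and at like signal the odds ratio was 0.922 (0.710 to 1.20, chi-square test, adjusted p = 0.707). Replicate 1 alone supported 186 promoter peaks, 36.5% against 35.9% of the others, and replicate 2 alone 33, 6.48% against 4.10%. Neither supported 88, 17.3% (14.1 to 20.9) against 9.21% of the others. Support by replicate 2 alone was strongest at Gbe1, a glycogen-branching enzyme gene (signal 32.7, ranks 17187 and 5313), Vwa1 (32.1), Ripk3, a kinase of necroptosis (30.5, 19 bp downstream), Gsx1, a homeobox gene of the nervous system (29.5), and Gm5965 (28.8). Peaks with neither replicate in support were led by Phpt1 (29.0, ranks 19144 and 56599), Susd6 (28.3, ranks 22141 and 17774), 1700001P01Rik (27.1), Ajuba (26.8) and Mrps23 (25.7). Of the 5 highest with support from replicate 1 alone, Adgra2 (64.9) and Zfp719 (64.4) had replicate 2 ranks of 23275 and 19186, beyond the limit of 15891, and both were in the conservative set.

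**Figure D5:**
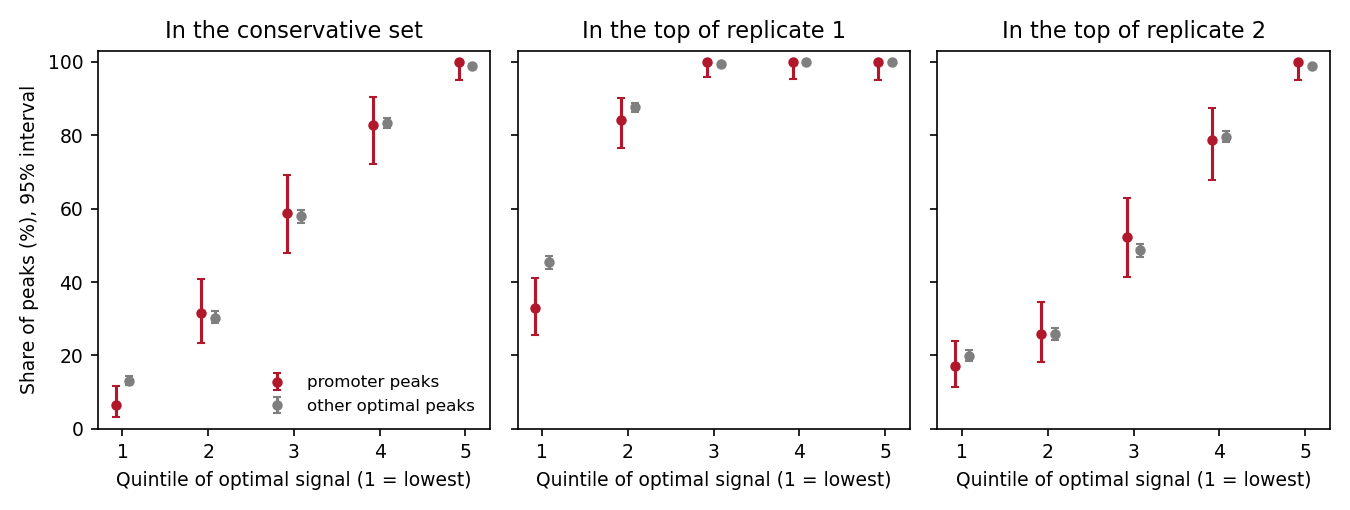
Share of peaks (y axis, percent, with exact 95% intervals) in the conservative set, in the top of replicate 1 and in the top of replicate 2, by quintile of the optimal signal (x axis, 1 is lowest), for promoter peaks (red) and other optimal peaks (grey). Shares rise with signal in both kinds of peak, and the clearest gap is in quintile 1 of replicate 1, at 32.9% against 45.4%.

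The mm9 lists, for each replicate and for the whole series, came from the same libraries as the mm10 sets. They gave a second view of the same genes by name and are no independent evidence. They held 22076 peaks for replicate 1, 6618 for replicate 2 and 13340 at series level on the chromosomes used. The lists were not cut to like length, so shares also depend on list length and cannot be compared between lists as replicate support. Of 440 genes with a promoter peak on mm10 whose symbol was in the mm9 annotation, 343 (78.0%, 73.8 to 81.7) had a replicate 1 peak that overlapped the 1 kb around the TSS on mm9. A replicate 2 peak was there for 112 (25.5%, 21.4 to 29.8) and a series-level peak for 218 (49.5%, 44.8 to 54.3). Without an mm10 promoter peak, these shares were 3.45%, 0.490% and 1.25% of 17765 genes. Where the mm10 peak was conservative, 99 of 198 genes had a replicate 2 peak, and where it was not, 13 of 242 (5.37%, 2.89 to 9.01). The conservative set comes from a reproducibility filter on the same replicates, so a split in this direction was built in. Mobp, Pou5f1, Irx4, Upp1, Rif1, Fbxo15 and Id1 had a promoter peak in each mm9 list, Zfp42 and Prdm14 in the replicate 1 and series-level lists, Dppa4 in that of replicate 1, and Ifitm2 in none.

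Among mm9 peaks of replicate 1, promoter sites were fewer where replicate 2 had a peak too, but not at like enrichment. Midpoints within 1 kb of a TSS made up 2.42% (2.06 to 2.82) of 6456 shared peaks and 4.20% (3.89 to 4.53) of 15620 peaks of replicate 1 only. The median enrichment was 21.8 for the shared peaks and 7.97 for the others. Within 20 strata of enrichment the odds ratio was 0.994 (0.756 to 1.31, Mantel-Haenszel chi-square test, adjusted p = 0.986). It became 1.32 (adjusted p = 0.00841, chi-square test) when promoters were taken as 2 kb to each side.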

How the data were processed

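NANOG ChIP-seq lists of 2 replicates were used. Per the deposited file notes, the authors derived the optimal and conservative mm10 sets by IDR (irreproducible discovery rate, a reproducibility filter) from relaxed lists of 300000 regions for each replicate and for their pool. The caller, its version and the IDR threshold are not given in the texts used here, and the relaxed lists were made with a control alignment per the README. The deposited signal per peak served for ranking, and the deposited summit offset, an other value in bp, gave positions. On mm9 the deposited enrichment signal and region midpoints were used. Read depth is unknown, and intervals cover counting of peaks only, not the spread between replicates.

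Gene 5' ends came from a RefSeq GRCm38.p6 table, with strand from RefSeq promoter windows (17273 genes) or, by symbol or synonym, from an mm9 annotation (4041), for 21314 of 21627 genes. Where both gave a strand they matched for 99.7%. mm9 and mm10 coordinates were never compared. Overlap means at least 1 bp. Tests were Fisher's exact test and the Mantel-Haenszel test over 20 strata of signal (limits normal on the log scale), two-sided, with Benjamini-Hochberg adjustment over 9 results, and an adjusted p under 0.05 was a call. Code was tested on simulated data. Shares and tests used SciPy 1.17.1 and statsmodels 0.14.6 under Python 3.11.15. Tables used pandas 2.3.3 with NumPy 2.4.6, and plots matplotlib 3.10.9. No promoter window on chromosome 18 was used here.

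Members, the 28 gene classes and motifs were chosen with earlier results of these data known. Genes were named by rule: the 20 highest peaks, up to 4 per class, genes with several peaks, divergent pairs, peaks at the 1 kb limit, extremes of conservative membership and replicate support, and the highest within 50 bp of a TSS. Of these the text names a selection. Alternatives changed the window, set, reference group, strata, overlap rule and replicate, and strand from mm9 only was added after seeing the data.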

Additional observations from a re-analysis of the deposited data

How the results depend on the processing

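The upstream excess (odds ratio 1.57 to 2.33 without a replicate) and the lower conservative share of promoter peaks kept their direction and call under every alternative run. The alternative with a single summit per region dropped only regions of identical coordinates, and 0 promoter peaks had such a repeat. It could therefore not change the upstream result. The 42 of 509 promoter peaks that overlapped another member were all kept. The promoter share of 3.21% was 1.79% with a window of 500 bp, 5.76% with 2 kb, 2.66% in the conservative set, and 2.71% to 3.07% without a replicate. The lower signal held in all alternatives except the top peaks of replicate 2, with 0.603 to 0.904 without a replicate. The excess within 250 bp was 1.30 in the conservative set, 1.26 with 50000 low-ranked regions, 1.34 at 100 bp, and 1.00 to 1.35 without a replicate. Fewer peaks enter the conservative set, and the cause of the other changes was not tested.

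At like signal, support by replicate 1 (0.645) was 0.801 against peaks at 1 to 10 kb, 0.777 with summits within 100 bp, and 1.61 with 50000 top regions. The other comparisons at like signal were not called and lay on both sides of 1. Against peaks at 1 to 10 kb they were lower, 0.876 for conservative membership, 0.8004 for both replicates and 0.831 for replicate 2. Conservative membership was 1.03 with a 2 kb window. Support by both replicates was 1.06 with 2 kb and 1.03 with summits within 100 bp. Support by replicate 2 was 1.01 with 500 bp, 1.13 with 2 kb, 1.00 with 50 strata, 1.10 with summits within 100 bp, 1.00 with one summit per region, and 1.01 with strand from mm9 only. The mm9 comparison was 1.05 with 500 bp and 1.01 with midpoints within 250 bp, and was called at 1.32 with 2 kb. None of these except the last passed the test.

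No paired analysis was possible because there is 1 group. The optimal set combines both replicates and carries no replicate error, 2 replicates estimate the spread poorly, and low-ranked regions are background of the same libraries, not a control sample.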
